A study of Mus musculus with 4 samples.

Results

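The TGF-β and BMP receptors and their SMADs were examined in sorted hematopoietic stem cells (HSCs) with and without *Id2*. These are 10 genes, chosen by symbol, of the 19354 genes with values. They are the ligand gene *Tgfb1*, the receptor genes *Tgfbr1*, *Tgfbr2*, *Bmpr1a* and *Bmpr2*, and *Smad1*, *Smad2*, *Smad4*, *Smad5* and *Smad7*. HSCs (LSK FLT3- CD48- CD150+) were sorted from bone marrow of mice aged 8 to 16 weeks. The control mice were Mx1-Cre Id2+/+, the deleted mice were Mx1-Cre Id2 fl/fl, and both received pIpC. The *Mx1* promoter is switched on by interferon, which pIpC induces, so Cre acts in many cell types of these mice, and controls carried the same Cre and the same treatment. Pools of 14 control and 15 deleted mice were sorted over 2 experiments, 2 weeks after pIpC. Each genotype gave 2 RNA libraries, called Id2+/+ and Id2Δ/Δ replicates 1 and 2. Since mice were pooled and no label ties a library to an experiment, p-values measure the spread between these libraries, which may in part be technical.

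TGF-β and BMP ligands bring together type II and type I receptors, both serine/threonine kinases. The type I receptor then phosphorylates receptor-regulated SMADs, SMAD2 and SMAD3 for TGF-β and SMAD1, SMAD5 and SMAD9 for BMP. These join SMAD4 and enter the nucleus, while SMAD6 and SMAD7 inhibit the signal. TGF-β is known as a signal that holds HSCs in quiescence, and BMP signals induce the *Id* genes in many cell types.

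Values are log2 counts in each 1000000 (log2 CPM) as the authors deposited them, and their nearly equal distributions in the 4 libraries are those that quantile normalization gives. In the lower part of the range, reads were inferred from the order of the distinct values, each step taken as 1 read. Some steps were up to 2.4 times the local median step, so the read counts are approximate. From these, depth was estimated at 14200000 and 15700000 reads for Id2+/+ and 17800000 and 18800000 for Id2Δ/Δ replicates 1 and 2. *Id2*, the deleted gene, was read 93 and 98 times in Id2+/+ replicates 1 and 2 and 0 times in each Id2Δ/Δ library. With the upper limit of 3 reads per library that a count of 0 allows, it was at least 39.0-fold lower in Id2Δ/Δ HSCs; the limit covers counting error only. In the fit across all genes even *Id2* had an adjusted p-value of 0.910 (unadjusted 0.000181, limma). Id2Δ/Δ replicate 1 stood somewhat apart, with 606 genes without reads against 170 to 326 in the other libraries. The sum of 8 genes of the HSC gate (*Kit*, *Ly6a*, *Slamf1*, *Procr*, *Hlf*, *Mecom*, *Fgd5* and *Cd34*) was 3740 and 3532 CPM in Id2+/+ and 2586 and 2890 CPM in Id2Δ/Δ libraries, lower without overlap, and without *Kit* 1581 and 1584 CPM against 1416 and 1391 CPM. *Slamf1*, which encodes CD150, had 5.78 and 5.70 log2 CPM in Id2+/+ and 6.08 and 5.92 log2 CPM in Id2Δ/Δ libraries, and *Kit* had 11.08 and 10.93 log2 CPM against 10.19 and 10.55 log2 CPM. Of the markers listed for other cells, those of T cells (0 of 4) had no row. B-cell (2 of 6), stromal (4 of 6) and macrophage (4 of 5) markers summed to at most 51.0 CPM in any library. Endothelial markers (5 of 6), a class known for TGF-β and BMP receptors, summed to 211 to 231 CPM in Id2+/+ and 207 to 223 CPM in Id2Δ/Δ libraries. Most of this sum was *Tek* (mean 114 CPM over the 4 libraries) and *Pecam1* (68 CPM). *Emcn*, *Kdr* and *Plvap* had means of 28.9, 6.36 and 1.40 CPM, and *Cdh5* had no row. Megakaryocyte markers (6 of 6) summed to 355 to 373 CPM in Id2+/+ and 431 to 434 CPM in Id2Δ/Δ libraries. Neutrophil markers (8 of 9) summed to 276 and 170 CPM in Id2+/+ and 258 and 140 CPM in Id2Δ/Δ replicates 1 and 2. *Prtn3* was the largest part (mean 129 CPM), at 6.84 to 7.23 log2 CPM. *S100a8* varied more, with 5.18 and 3.79 log2 CPM in Id2+/+ and 4.75 and 2.04 log2 CPM in Id2Δ/Δ libraries. Each measured neutrophil marker was higher in replicate 1 than in replicate 2 of both genotypes. Erythroid markers (8 of 9), nearly all of it *Car2*, summed to 1899 to 2009 CPM against 1771 to 1884 CPM. Markers outside the gate, *Cd48* and *Flt3*, summed to 53.0 to 57.7 CPM against 48.3 to 52.3 CPM. Whether any of these moved a result below was not tested.

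Promoter windows of the members are shown because ID proteins hold E proteins off the E-box (CANNTG), while SMADs bind GTCTAGAC and, for the BMP SMADs, GC-rich elements such as GGCGCC. RefSeq windows (GRCm38.p6, from 250 bases before to 50 after a transcript start) were at hand for 7 of the 10 members, 10 windows in all. *Smad2*, *Smad4* and *Smad7* had no entry. The first window is printed 5′ to 3′ on the gene's strand for those members with an entry in which both Id2Δ/Δ values lay below both controls, *Smad5* (chr13:56702760-56703059, plus strand), *Smad1* (chr8:79399379-79399678, minus strand) and *Bmpr2* (chr1:59764029-59764328, plus strand), and for *Tgfbr2* (chr9:116175314-116175613, minus strand), the TGF-β type II receptor. Capitals mark each E-box and each GGCGCC.
Smad5: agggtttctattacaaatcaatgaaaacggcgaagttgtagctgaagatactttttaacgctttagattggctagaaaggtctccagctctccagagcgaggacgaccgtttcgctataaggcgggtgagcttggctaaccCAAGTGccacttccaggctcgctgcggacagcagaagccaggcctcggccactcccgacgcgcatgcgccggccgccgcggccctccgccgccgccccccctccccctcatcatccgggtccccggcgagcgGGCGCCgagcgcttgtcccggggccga
Smad1: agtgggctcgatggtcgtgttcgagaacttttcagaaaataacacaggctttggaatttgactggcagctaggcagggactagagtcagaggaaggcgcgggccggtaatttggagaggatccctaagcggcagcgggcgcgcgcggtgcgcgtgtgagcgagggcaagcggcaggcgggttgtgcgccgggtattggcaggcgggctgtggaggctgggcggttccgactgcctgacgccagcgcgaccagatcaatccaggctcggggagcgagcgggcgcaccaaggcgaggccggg
Bmpr2: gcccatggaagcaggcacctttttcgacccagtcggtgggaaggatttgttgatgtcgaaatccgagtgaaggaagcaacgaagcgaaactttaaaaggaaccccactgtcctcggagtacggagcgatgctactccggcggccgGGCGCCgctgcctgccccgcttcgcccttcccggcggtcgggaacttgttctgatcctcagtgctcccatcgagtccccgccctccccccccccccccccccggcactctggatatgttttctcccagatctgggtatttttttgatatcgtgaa
Tgfbr2: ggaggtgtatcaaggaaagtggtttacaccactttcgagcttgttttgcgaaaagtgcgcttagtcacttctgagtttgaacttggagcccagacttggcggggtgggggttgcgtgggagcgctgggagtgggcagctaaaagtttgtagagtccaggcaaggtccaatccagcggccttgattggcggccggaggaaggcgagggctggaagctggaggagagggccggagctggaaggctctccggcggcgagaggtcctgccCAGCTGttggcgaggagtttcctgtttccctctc
All 3 motifs read the same on both strands. The *Smad5* window held 1 E-box (CAAGTG) and 1 GGCGCC, the *Bmpr2* window 1 GGCGCC, the *Tgfbr2* window 1 E-box (CAGCTG), and the *Smad1* window neither. Over the 10 windows, 4 held an E-box, 5 held GGCGCC and 0 held GTCTAGAC. Among 32851 promoter windows of the same length, 72.3% held an E-box, 11.9% GGCGCC and 0.213% GTCTAGAC. The first and second *Smad5* windows overlap and share both matches. G and C made up 52.0% to 79.3% of the windows, against a median of 52.7% over all windows. These matches describe the letters only.

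All 10 members were expressed in HSCs and passed the filter of a mean of 1 CPM that 15895 genes passed. Transcript levels of different genes are comparable only per length, so log2 CPM was reduced by the log2 length in kilobases of the longest annotated transcript. On that scale the ligand gene *Tgfb1* had the highest level, 5.63 ± 0.09 log2 CPM per kilobase (SD, n = 4 libraries). *Smad4*, the shared partner of all receptor-regulated SMADs, came next at 5.03 ± 0.08, followed by the BMP SMADs *Smad1* at 4.39 ± 0.11 and *Smad5* at 4.20 ± 0.18. *Tgfbr2*, *Smad2* and *Tgfbr1* lay close together at 3.39 ± 0.28, 3.35 ± 0.14 and 3.19 ± 0.38. The inhibitory *Smad7* had 2.13 ± 0.16 and the BMP type II receptor gene *Bmpr2* 1.91 ± 0.12. The BMP type I receptor gene *Bmpr1a* was the lowest and the most variable, at 0.48 ± 0.73. Neighbours in this order whose libraries overlapped were *Smad1* and *Smad5*, *Tgfbr2* and *Smad2*, *Smad2* and *Tgfbr1*, and *Smad7* and *Bmpr2*, so their order is not set beyond the spread. The order also depends on the transcript taken. With the median transcript length in place of the longest, *Tgfb1* (7.51) and *Smad4* (7.22) still led and *Bmpr2* (3.36) and *Bmpr1a* (2.62) were still last, but *Smad2* (5.98) lay above *Smad1* (5.50) and *Smad5* (5.35), and *Tgfbr1* (4.84) and *Smad7* (4.56) lay above *Tgfbr2* (3.87). By either length the mean levels of both TGF-β receptor genes lay above those of both BMP receptor genes.

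**Figure D1:**
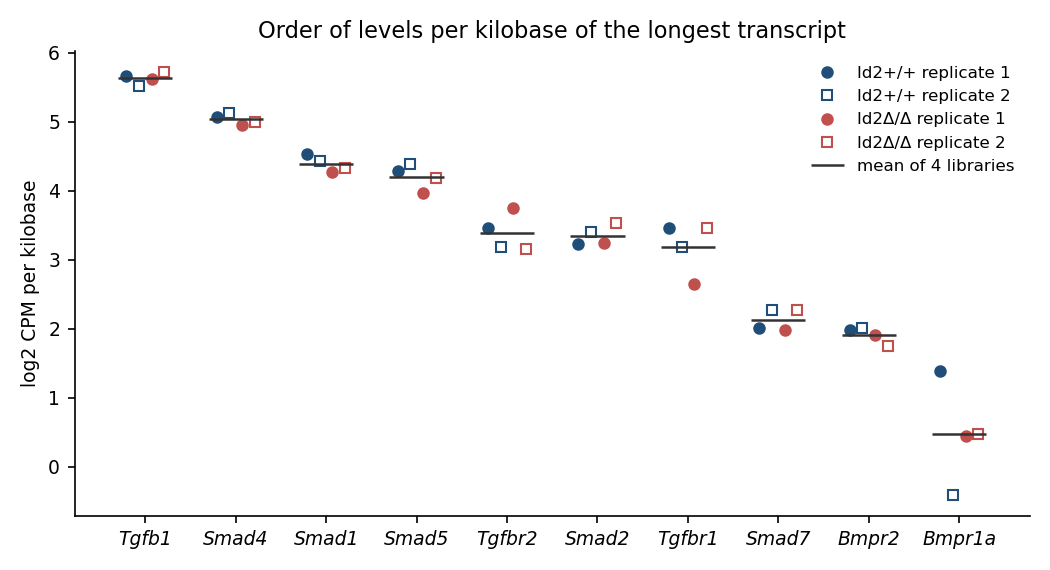
Level of each member per kilobase of its longest transcript (log2 CPM per kilobase, vertical axis), ordered from left to right by the mean of 4 libraries (black line), with Id2+/+ libraries in blue, Id2Δ/Δ libraries in red, replicate 1 as filled circles and replicate 2 as open squares. *Tgfb1* sits at the top at 5.63 and *Bmpr1a* at the bottom at 0.48, and the 4 points of *Bmpr1a* are the most spread out.

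The comparison of genotypes asks whether loss of *Id2* went with another level of these pathway genes. It did not pass the test for any of them. None of the 10 members had an adjusted p-value under 0.05 (limma with Benjamini-Hochberg adjustment over 15895 genes, two-sided), as was the case for 0% of all genes tested. Without adjustment, 0 members had p under 0.05, against 742 of all genes (4.67%), of which 1.72% were higher and 2.95% lower in Id2Δ/Δ HSCs. Fitted log2 fold changes of the members, Id2Δ/Δ over Id2+/+, ran from -0.27 to 0.13 with standard errors (SE) of 0.12 to 0.54. Their median was -0.08, beside 0.01 over all genes tested, and 7 of 10 lay below 0 against 48.3% of all genes. In 4 members (*Bmpr2*, *Smad1*, *Smad4* and *Smad5*) both Id2Δ/Δ values lay below both Id2+/+ values, and in 0 both lay above. Over all genes, 15.8% lay below in this way and 19.0% above, 34.8% together. Of the members, 6 have a longest transcript of over 5000 bases. Among all tested genes of that length, 28.0% lay below and 9.53% above, and the median log2 fold change was -0.10. The other 4 members, *Smad1* and *Smad4* among them, have over 2000 to 5000 bases. Among all tested genes of that class, 14.8% lay below and 17.6% above, and the median was 0.0078. With 2 libraries on each side, the smallest two-sided p that exact permutation allows is 0.333. In sorted bulk cells, fewer cells of a type and less RNA per cell cannot be told apart.

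**Figure D2:**
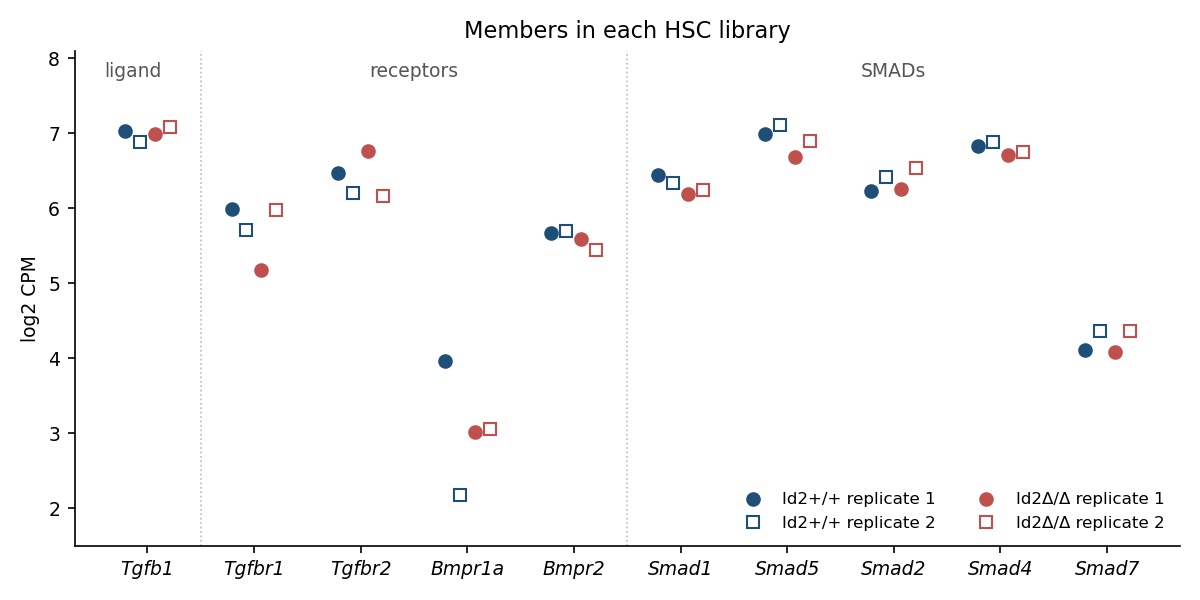
Level of each member (log2 CPM, vertical axis) in each of the 4 libraries, grouped as ligand, receptors and SMADs, with Id2+/+ in blue, Id2Δ/Δ in red, replicate 1 as filled circles and replicate 2 as open squares. The red points of *Smad1*, *Smad5*, *Smad4* and *Bmpr2* lie below the blue points, *Bmpr1a* spreads widest in Id2+/+ (3.96 and 2.17), and *Tgfbr1* spreads widest in Id2Δ/Δ (5.17 and 5.98).

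*Tgfb1* (ENSMUSG00000002603.15, chromosome 7 of GRCm38 from 25687002 to 25705077, plus strand) encodes TGF-β1, the ligand that megakaryocytes and other cells secrete in a latent form. Its level was 7.03 and 6.88 log2 CPM in the Id2+/+ and 6.98 and 7.08 log2 CPM in the Id2Δ/Δ libraries. The groups overlapped, with the highest value in an Id2Δ/Δ and the lowest in an Id2+/+ library. Its log2 fold change was 0.08 (SE 0.13, 95% confidence interval -0.21 to 0.38, adjusted p = 0.939 from limma), and leaving out each library in turn gave 0.01 to 0.15. It kept its sign under every alternative tried.

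The TGF-β receptors were the members in which the Id2Δ/Δ libraries disagreed most. *Tgfbr1* (ENSMUSG00000007613.15, chromosome 4 from 47353222 to 47414931, plus strand) encodes the type I receptor. It had 5.98 and 5.71 log2 CPM in Id2+/+ and 5.17 and 5.98 log2 CPM in Id2Δ/Δ replicates 1 and 2. Id2Δ/Δ replicate 1 was thus the lowest of the 4 libraries, while replicate 2 was about level with the higher control. On the log2 scale, the fold change of -0.27 (SE 0.26, 95% confidence interval -0.89 to 0.35) had an adjusted p-value of 0.916 from limma. It was 0.13 without Id2Δ/Δ replicate 1 and -0.67 without Id2Δ/Δ replicate 2. *Tgfbr2* (ENSMUSG00000032440.13, chromosome 9 from 116084293 to 116175360, minus strand), the type II receptor that binds the ligand, went the other way between the same libraries. Its level was 6.47 and 6.21 log2 CPM in Id2+/+ and 6.77 and 6.16 log2 CPM in Id2Δ/Δ, so that Id2Δ/Δ replicate 1 was the highest and replicate 2 the lowest of the 4. Fitted across genes, the log2 fold change was 0.13 (SE 0.21, adjusted p = 0.942 from limma). Without Id2Δ/Δ replicate 1 it was -0.17, without Id2+/+ replicate 2 -0.01, and without Id2Δ/Δ replicate 2 0.43. The length correction moved it to 0.23.

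Read as a ratio within a library, *Tgfbr1* over *Tgfbr2* was -0.49 and -0.49 on the log2 scale in the Id2+/+ libraries, -1.59 in Id2Δ/Δ replicate 1 and -0.19 in Id2Δ/Δ replicate 2. The controls were alike, and the Id2Δ/Δ libraries lay on opposite sides of them (exact permutation p = 1, two-sided). Among genes within 2-fold of the mean CPM of *Tgfbr1*, 2.98% of 5641 differed between the Id2Δ/Δ libraries by at least its 0.80. For *Tgfbr2*, with a gap of 0.60, it was 5.26% of 4960 genes. Both genes were picked for this count after their gaps had been seen.

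The BMP receptor genes differed in how far their libraries spread. *Bmpr1a* (ENSMUSG00000021796.14, chromosome 14 from 34410734 to 34503341, minus strand) encodes a type I BMP receptor and is low enough for reads to be inferred. It had 220 reads (95% Poisson interval 191.9 to 251.1) in Id2+/+ replicate 1 and 72 (56.3 to 90.7) in Id2+/+ replicate 2, against 142 (119.6 to 167.4) and 149 (126.0 to 174.9) in Id2Δ/Δ replicates 1 and 2. These intervals cover counting error only. In log2 CPM the values were 3.96 and 2.17 in Id2+/+ and 3.02 and 3.05 in Id2Δ/Δ libraries. Both Id2Δ/Δ values lay between the control values, which differed 3.46-fold. As large a gap between the Id2+/+ libraries was found in 11 of 3093 genes (0.356%) within 2-fold of its mean CPM. The median gap of these 3093 genes was 0.28 on the log2 scale. *Bmpr1a* was picked for this count after its gap had been seen. Its log2 fold change of -0.03 (SE 0.54, 95% confidence interval -1.30 to 1.24) therefore rests on controls that disagree. It was 0.87 without Id2+/+ replicate 1 and -0.92 without Id2+/+ replicate 2. The antisense gene *Gm17110* overlaps an exon of *Bmpr1a*, and 4.08% of the 31-base words of *Bmpr1a* transcripts occur in it. It had 5 and 0 reads in Id2+/+ and 12 and 4 reads in Id2Δ/Δ libraries.

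*Bmpr2* (ENSMUSG00000067336.6, chromosome 1 from 59763400 to 59879014, plus strand), the BMP type II receptor, had 5.67 and 5.70 log2 CPM in Id2+/+ and 5.59 and 5.44 log2 CPM in Id2Δ/Δ libraries. Both Id2Δ/Δ values lay below both controls. On the log2 scale, the fold change was -0.17 (SE 0.15, 95% confidence interval -0.53 to 0.19, adjusted p = 0.910 from limma), and leaving out each library in turn gave -0.24 to -0.09. Its longest transcript has 12899 bases, the longest of the members. Long transcripts were lower in Id2Δ/Δ libraries as a class. Over 2897 tested genes with over 5000 bases the median log2 fold change was -0.10, and in 28.0% of them both Id2Δ/Δ values lay below both controls. After each library was corrected for its trend with transcript length, *Bmpr2* had a log2 fold change of 0.00087 and its libraries overlapped.

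**Figure D3:**
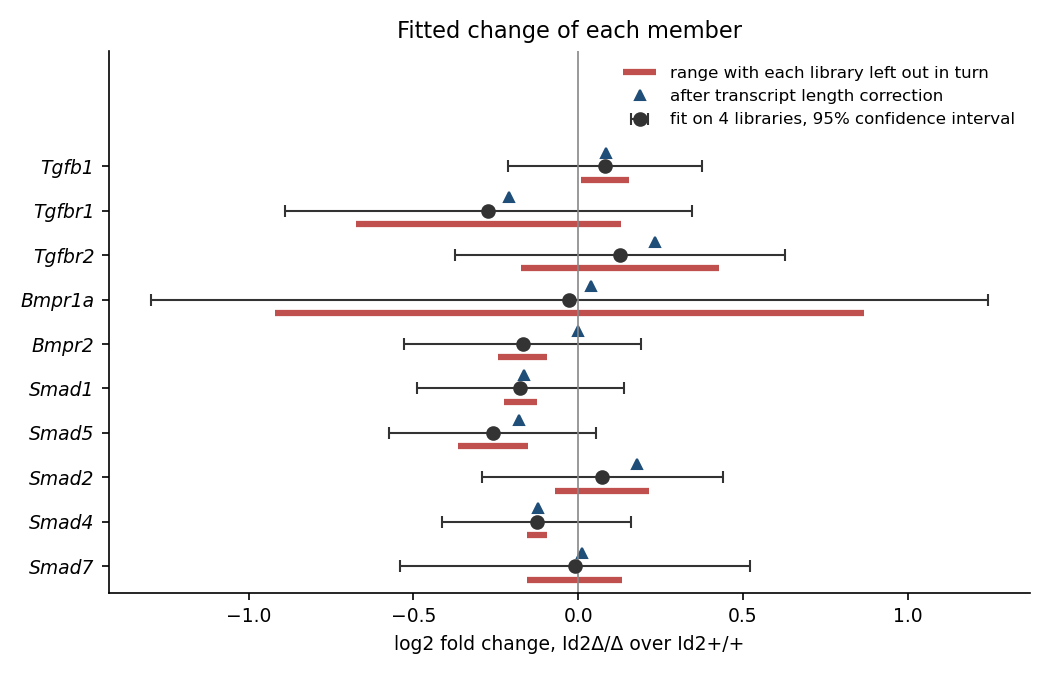
Fitted log2 fold change of each member, Id2Δ/Δ over Id2+/+ (horizontal axis), with the 95% confidence interval from limma (black), the range with each library left out in turn (red bar) and the value after transcript length correction (blue triangle). Every interval includes 0, the red bars of *Bmpr1a* and *Tgfbr1* are the widest, and *Bmpr2* moves to 0.00087 after correction while *Smad1* and *Smad4* lie at -0.17 and -0.12 and *Smad5* moves from -0.26 to -0.18.

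The BMP SMADs were the members with the lowest fitted values outside *Tgfbr1*. *Smad5* (ENSMUSG00000021540.16, chromosome 13 from 56703010 to 56742377, plus strand) had 7.0 and 7.11 log2 CPM in Id2+/+ and 6.69 and 6.90 log2 CPM in Id2Δ/Δ libraries. The groups did not overlap, and Id2Δ/Δ replicate 1 was the lowest. Fitted across genes, the log2 fold change was -0.26 (SE 0.13, 95% confidence interval -0.57 to 0.05), with an unadjusted p-value of 0.0923, the smallest of the 10 members, and an adjusted p-value of 0.910 from limma. Its relative *Smad1* (ENSMUSG00000031681.16, chromosome 8 from 79338395 to 79399518, minus strand), which receives the same receptor signal, had 6.44 and 6.34 log2 CPM in Id2+/+ and 6.19 and 6.24 log2 CPM in Id2Δ/Δ libraries. Here too both Id2Δ/Δ values lay below both controls, and each pair lay close together. Its log2 fold change was -0.18 (SE 0.13, 95% confidence interval -0.49 to 0.14, adjusted p = 0.910 from limma). With 6584 bases *Smad5* is among the long transcripts, and the length correction moved it to -0.18. Leaving out each library in turn gave -0.37 to -0.15 for *Smad5* and -0.23 to -0.13 for *Smad1*. Their transcripts share 0 words of 31 bases with each other, so reads of that length without mismatches can be told apart.

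*Smad2* (ENSMUSG00000024563.15, chromosome 18 from 76241580 to 76310963, plus strand), which carries the TGF-β signal, had 6.24 and 6.42 log2 CPM in Id2+/+ and 6.26 and 6.54 log2 CPM in Id2Δ/Δ libraries. The groups overlapped. Its log2 fold change was 0.07 (SE 0.16, adjusted p = 0.948 from limma), -0.02 without Id2+/+ replicate 1 and -0.07 without Id2Δ/Δ replicate 2. The length correction moved it to 0.18. *Smad3*, the other TGF-β SMAD, had 6.66 and 6.98 log2 CPM in Id2+/+ and 6.85 and 6.81 log2 CPM in Id2Δ/Δ libraries, with both Id2Δ/Δ values between the controls. The summed CPM of *Smad1* and *Smad5* over that of *Smad2* and *Smad3* was 0.28 and 0.05 on the log2 scale in Id2+/+ and -0.13 and -0.08 in Id2Δ/Δ libraries. All Id2Δ/Δ ratios lay below the control ratios, by 0.27 on average, where the control ratios had an SD of 0.17 (exact permutation p = 0.333, two-sided, the smallest 4 libraries allow). These ratios were formed after the members' values had been seen, with *Smad1* and *Smad5* each already lower without overlap. The sums were not taken per length, so the ratio compares libraries and not the levels of the SMADs. The other ratios formed overlapped between genotypes: *Tgfbr1* over *Tgfbr2*, *Bmpr1a* over *Bmpr2*, *Smad6* over *Smad7* and *Smad7* over *Smad4*.

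**Figure D4:**
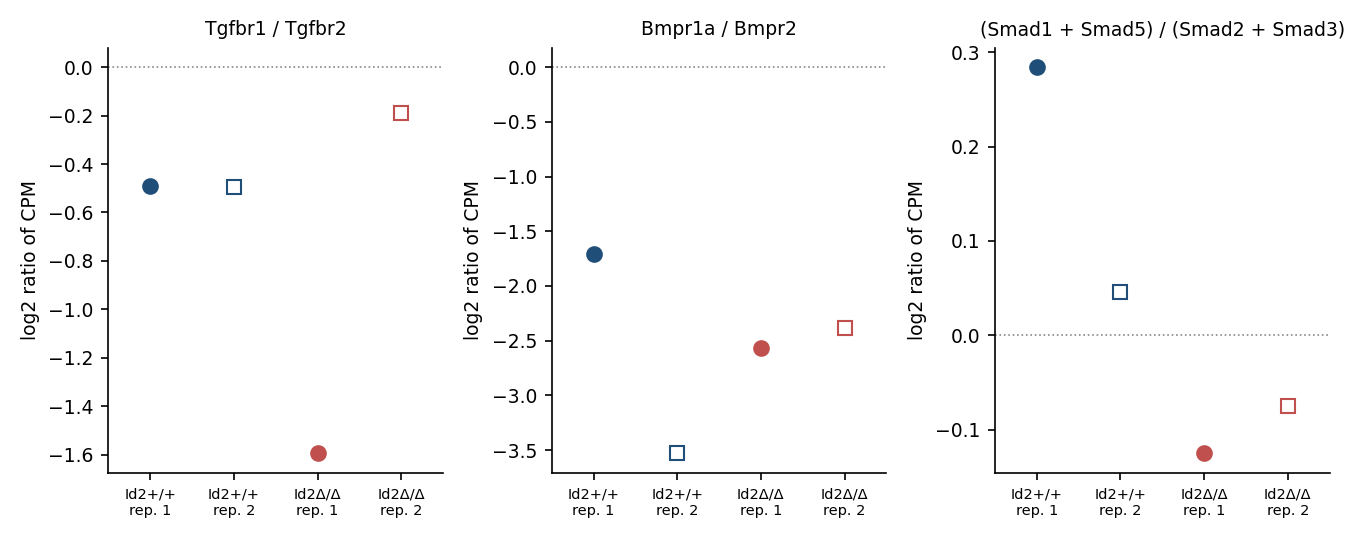
Log2 ratio of CPM within each library (vertical axes) for *Tgfbr1* over *Tgfbr2*, *Bmpr1a* over *Bmpr2*, and the BMP SMADs over the TGF-β SMADs, with Id2+/+ in blue, Id2Δ/Δ in red, replicate 1 as filled circles and replicate 2 as open squares; the vertical scales differ. The first ratio is -0.49 in both controls and -1.59 and -0.19 in Id2Δ/Δ, the second runs from -3.53 to -1.71 in the controls, and in the third both Id2Δ/Δ points lie below both controls.

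*Smad4* (ENSMUSG00000024515.13, chromosome 18 from 73639009 to 73703780, minus strand), the partner that both arms share, had 6.83 and 6.89 log2 CPM in Id2+/+ and 6.71 and 6.75 log2 CPM in Id2Δ/Δ libraries. Both Id2Δ/Δ values lay below both controls. On the log2 scale, the fold change was -0.13 (SE 0.12, 95% confidence interval -0.41 to 0.16, adjusted p = 0.916 from limma), and leaving out each library in turn gave -0.16 to -0.10. With 3384 bases it is not among the long transcripts, and the length correction left it at -0.12. *Smad7* (ENSMUSG00000025880.11, chromosome 18 from 75367529 to 75395935, plus strand), the inhibitory SMAD that TGF-β itself induces, had 243 and 319 reads in Id2+/+ and 300 and 389 reads in Id2Δ/Δ libraries. That is 4.10 and 4.36 log2 CPM against 4.08 and 4.37 log2 CPM, nearly the same pair of values in each genotype. Its log2 fold change was -0.01 (SE 0.23, 95% confidence interval -0.54 to 0.52, adjusted p = 0.996 from limma). Leaving out a library gave -0.16 to 0.13, with a positive value without Id2+/+ replicate 2 (0.12) or Id2Δ/Δ replicate 1 (0.13).

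Other genes of the pathway were taken from lists by role. Apart from *Id2* and the members, 59 could be tested, of which 0 had an adjusted p-value under 0.05 and 2 (3.39%, against 4.67% of all genes) an unadjusted p-value under 0.05 (limma). In 8 of them (13.6%, against 15.8% of all genes) both Id2Δ/Δ values lay below both controls and in 6 (10.2%, against 19.0%) above, and their median log2 fold change was -0.07. Among ligands and proteins of latency, 11 of 20 genes could be tested, 0 passed in either direction, all overlapped between genotypes and the median was -0.06. The most abundant were *Nrros*, which holds latent TGF-β on myeloid cells, *Ltbp3* and the protease gene *Furin*, with log2 fold changes of -0.07, 0.00 and -0.10. The smallest unadjusted p-values were those of *Tgfb3* (0.51, SE 0.47) and *Itgav* (-0.14, standard error 0.16). *Tgfb3* had 68 and 76 reads in Id2+/+ and 184 and 74 in Id2Δ/Δ libraries, so that Id2Δ/Δ replicate 1 alone stood out; without it the log2 fold change was -0.14.

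Among other receptors and co-receptors, 10 of 15 could be tested, with a median log2 fold change of -0.17. Both Id2Δ/Δ values lay above both controls in 2 and below in 3, where 19.0% of all genes lay above and 15.8% below. *Rgmb*, which encodes a BMP co-receptor of the repulsive guidance family, had 63 and 60 reads in Id2+/+ and 147 and 179 reads in Id2Δ/Δ libraries. The controls were alike and both Id2Δ/Δ libraries were well above them. Fitted across genes, the log2 fold change was 1.17 (SE 0.33, 95% confidence interval 0.40 to 1.94, adjusted p = 0.910 from limma), and leaving out each library in turn gave 1.06 to 1.29. The unadjusted p-value of 0.00838 placed it among the 1.72% of all genes that were higher in Id2Δ/Δ at an unadjusted p-value under 0.05. *Tgfbr3*, which encodes betaglycan, a co-receptor that presents TGF-β to the type II receptor, had 7.41 and 7.27 log2 CPM in Id2+/+ and 6.94 and 7.15 log2 CPM in Id2Δ/Δ libraries, without overlap. In the fit it differed by -0.30 on the log2 scale (SE 0.13, adjusted p = 0.910 from limma). The longest *Tgfbr3* transcript has 6087 bases, and the length correction moved the difference to -0.23. The abundant *Eng*, which encodes endoglin, and *Acvr2a*, an activin and BMP type II receptor, had -0.12 and -0.13 with overlapping libraries, and both changed sign with a single library left out. *Acvr1b*, *Neo1* (both lower) and *Acvr2b* (higher) were the others without overlap, and are outside the naming rule. The type I receptor genes *Acvrl1* and *Bmpr1b* had no row.

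Among other SMADs, *Smad3* and the inhibitory *Smad6* had log2 fold changes of 0.01 and -0.08 (SEs 0.15 and 0.32), and *Smad9* had no row. *Smad6* had 101 and 162 reads in Id2+/+ and 127 and 160 reads in Id2Δ/Δ libraries, with overlap. Of the SMAD regulators, 25 of 26 could be tested, with a median log2 fold change of -0.07. Without overlap, 4 were lower and 3 higher, where 15.8% of all genes were lower and 19.0% higher in this way. *Usp9x*, a deubiquitinase that acts on SMAD4, had 7.63 and 7.62 log2 CPM in Id2+/+ and 7.08 and 7.28 log2 CPM in Id2Δ/Δ libraries, and differed by -0.45 on the log2 scale (SE 0.12, with an unadjusted p of 0.00763 and an adjusted p of 0.910, both from limma). Its longest transcript has 11887 bases, and the length correction moved it to -0.29. The coactivator *Ep300* had -0.26 (SE 0.12), without overlap, and -0.13 after the length correction. The abundant *Crebbp*, *Fkbp1a* and *Ctdsp2* had log2 fold changes of -0.05 (0.09 after the length correction), 0.14 and 0.02, of which the last 2 lay above the controls in both Id2Δ/Δ libraries.

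**Figure D5:**
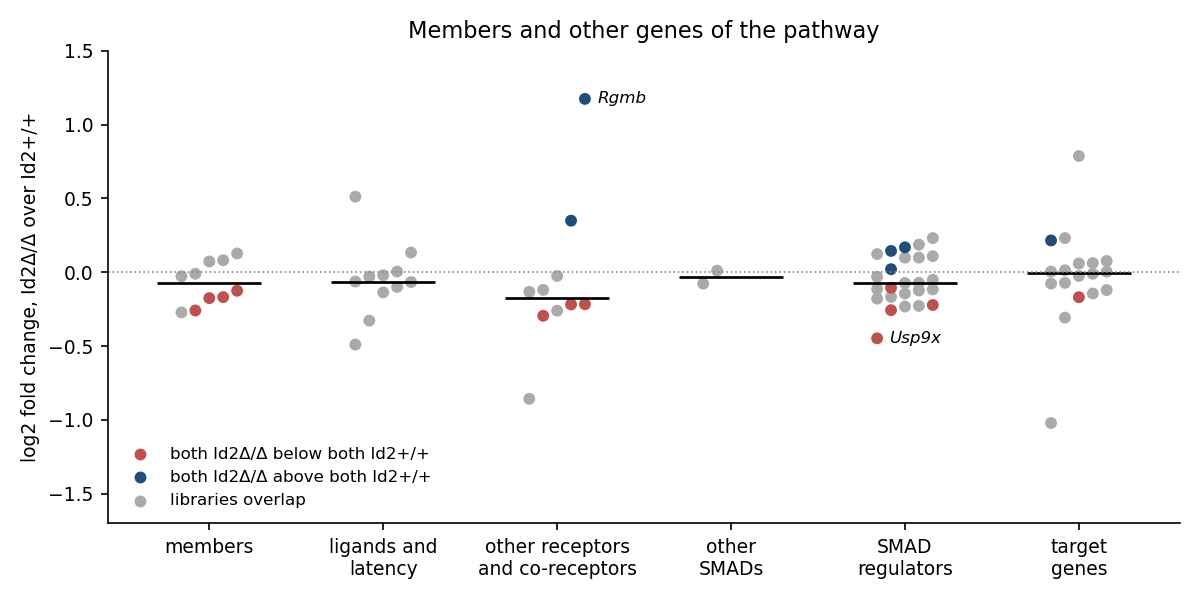
Log2 fold change, Id2Δ/Δ over Id2+/+ (vertical axis), of the 10 members and of the other pathway genes by role, without *Id2*; each point is a gene, the black line is the median, red and blue mark genes whose genotypes do not overlap, and genes of more than 1 list are drawn in each. The medians lie between -0.17 and 0.00, and the labelled *Rgmb* (1.17) and *Usp9x* (-0.45) are the genes with an unadjusted p-value under 0.05.

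Fitted changes of the listed target genes of the pathway lay on both sides of 0. The list gives no expected sign for each target, so their median cannot show whether the signal changed. Besides *Id2*, 18 of the 26 listed genes could be tested, *Smad7* among them, 0 passed in either direction, 9 lay below 0 and the median log2 fold change was -0.0035. *Id1*, a classical BMP target, had 15 and 39 reads in Id2+/+ and 22 and 108 reads in Id2Δ/Δ libraries. Replicate 2 was the higher in each genotype, and the groups overlapped. Its log2 fold change was 0.79 (SE 0.85, adjusted p = 0.924 from limma), but -0.35 without Id2Δ/Δ replicate 2. *Id3* had 10 and 6 reads in Id2+/+ and 0 and 12 in Id2Δ/Δ libraries, and *Id4* 11 and 4 against 0 and 9, both under the filter. At this depth no difference in *Id3* or *Id4* could be detected. The abundant *Tsc22d1*, *Junb* and *Gata2* had log2 fold changes of 0.01, 0.08 and 0.00, and *Junb* ranged from -0.65 without Id2Δ/Δ replicate 2 to 0.80 without Id2Δ/Δ replicate 1. *Myc* had 7.53 and 7.64 log2 CPM in Id2+/+ and 7.81 and 7.80 log2 CPM in Id2Δ/Δ libraries, a log2 fold change of 0.22 (SE 0.11, adjusted p = 0.910 from limma). *Runx1* had 7.82 and 7.81 log2 CPM in Id2+/+ and 7.64 and 7.66 log2 CPM in Id2Δ/Δ libraries, a log2 fold change of -0.17 (SE 0.11, adjusted p = 0.910 from limma). The longest *Runx1* transcript has 5861 bases, and the length correction moved the log2 fold change to -0.11. *Myc* and *Runx1* were, of the 18 tested targets other than *Id2*, those whose genotypes did not overlap, where 34.8% of all genes did not overlap.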

How the data were processed

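RNA of pooled, sorted HSCs was sequenced in 2 Id2+/+ and 2 Id2Δ/Δ libraries, grouped by the sample labels. The authors deposited log2 values of counts in each 1000000 reads (CPM) for 19354 genes in 4 columns, all used. The unit was read from the values: taken back from log2 they sum to between 999980 and 999996 per library, and in 88.4% of ranks the sorted columns lie within 0.1 of each other, as quantile normalization gives; that it was used is inferred from this. Per the labels, the submitters' processing notes name CASAVA 1.8.4, Trimmomatic 0.30, TopHat2 2.0.8, RSEM, STAR, mm9 and NCBIM37, with no role; the normalization, gene filter and strand use are not given in the sources used here. Such normalization forces the libraries onto a shared distribution, so a shift of most genes together would not show.

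Reads were taken as the rank of the distinct value within a library below 32 CPM, and depth as the median of (reads + 0.5) / CPM over log2 values of 1 to 5. No count model was run. The 15895 genes whose mean reached 1 CPM were fitted with limma 3.58.1 in R 4.3.3 (lmFit and eBayes, prior variance following mean intensity, a genotype term and no other) without a pseudocount. Two-sided p-values were corrected over all genes tested (Benjamini-Hochberg), with a call at an adjusted p under 0.05. The fit was also run on simulated data with independent normal noise, which does not show how well it calls changes in these libraries. Alternatives varied pseudocount, scaling, filter, trend, threshold, libraries, the replicate number as a block and a correction for transcript length (spline with 5 degrees of freedom).

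Positions and transcript lengths are those of GENCODE M21 (GRCm38), matched by identifier for 99.7% of genes (82.0% with the same version), and not of mm9. Named genes are the 10 members, *Id1* to *Id4*, and per list the 3 most abundant genes and the 2 with the smallest p-value. In 3 lists a gene stood under an older and a newer symbol and was counted once. Members, lists and tests were chosen with earlier results of these data known. Another gene of the HSC gate list is not reported here. The ratios of members within a library, and the shares of genes with as large a gap between replicates, were added after the members' values were seen.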

Additional observations from a re-analysis of the deposited data

How the results depend on the processing

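No member passed an adjusted p-value of 0.05 in any setting tried. Over all genes, 0 were called; the replicate block gave 1 (*C130089K02Rik*), and an unadjusted p-value under 0.05 gave 742. The median log2 fold change of the members, -0.08, was -0.13 with a filter of 10 CPM, which drops *Bmpr1a*, and 0.0064 with the transcript length correction, alone and as replicate block with transcript length correction; leaving out each library in turn gave -0.13 to -0.059. The number of members that did not overlap, 4, was 3 after the length correction (*Smad1*, *Smad4* and *Smad5*), and 6 to 8 with a library left out, where 59.9% to 77.1% of all genes do not overlap. The median level per kilobase, 3.37, was 5.10 with the median transcript length, which also changed the order of the members between the first 2 and the last 2.

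Of 139 recomputed member values, 14 changed sign. With the transcript length correction, also under the replicate block, *Bmpr1a*, *Bmpr2* and *Smad7* had log2 fold changes of 0.039, 0.00087 and 0.012. With libraries left out in turn, *Tgfbr1* ranged from -0.67 to 0.13, *Tgfbr2* from -0.17 to 0.43, *Bmpr1a* from -0.92 to 0.87, *Smad2* from -0.069 to 0.21 and *Smad7* from -0.16 to 0.13. The cause was not tested. The labels do not say that a replicate number marks an experiment, and the correlation between libraries of the same number, in their deviation from the genotype mean, was 0.0592 over genes; the block changed no call of a member. With 2 libraries per genotype, unadjusted 95% intervals reach 0.29 to 1.27 on either side of a member's log2 fold change. Smaller differences could not be resolved, and larger ones need not pass after adjustment over all genes. *Rgmb* (log2 fold change 1.17) and the deleted *Id2* each had an adjusted p-value of 0.910 (limma).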
